A study of Mus musculus with 6 samples.

Results

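A set of 10 named genes stands for triglyceride synthesis and glyceroneogenesis in mouse white fat: Aqp7, Pck1, Gpd1, Gpam, Agpat2, Agpat3, Lpin1, Dgat1, Dgat2 and Bscl2. They were chosen by name from 30701 genes that the array's annotation pairs with a probe set of exactly 1 symbol. Each of them had 1 such probe set, and the choice was made with earlier results of these data known. RNA was measured on 6 microarrays of inguinal white fat, a subcutaneous depot, taken from male C57BL/6 mice at 2 months of age. The arrays are labelled as biological replicates, and whether each holds 1 mouse or a pool is not stated in the labels. On the 3 arrays labelled KO the mice carried floxed Tfg alleles and Adipoq-ERT2Cre, a Cre recombinase that the adiponectin promoter drives in adipocytes and that tamoxifen switches on. On the 3 arrays labelled WT the mice carried the floxed alleles without Cre. Per the series' design, tamoxifen was injected over 5 days in both groups and the fat was collected 2 weeks afterwards. The model is built to act in adipocytes, and no array measured deletion in any cell type of the tissue.

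An adipocyte stores fatty acids by joining them to a glycerol backbone in the endoplasmic reticulum. The backbone is glycerol 3-phosphate, made from glucose or, in glyceroneogenesis, from pyruvate by way of oxaloacetate and phosphoenolpyruvate. Acyltransferases then add fatty acids one after another, a lipin phosphatase removes the phosphate, and a diacylglycerol acyltransferase adds the last chain. Seipin sits where the finished fat buds off as a lipid droplet, and an aquaglyceroporin lets glycerol cross the cell surface.

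All values are log2 signals per probe set as deposited, so a difference of 1 is a doubling, and changes are means of the KO-labelled minus the WT-labelled arrays (n = 3 each). Array medians were 6.47 to 6.76 on KO-labelled and 6.96 to 7.02 on WT-labelled arrays, and over all 65956 probe sets the change had a median of -0.37. KO 2 stood apart: it correlated with KO 1 and KO 3 at 0.96, against 0.986 between those, and with WT-labelled arrays at 0.874 to 0.900. Tfg itself did not fall on the KO-labelled arrays (8.08 ± 0.12 against 7.94 ± 0.03, SD, n = 3 each, limma adjusted p = 0.345), though which exons its probe set reads is unknown here, so the groups are called by their labels throughout. Markers of the tissue were present: 14 measured adipocyte markers averaged 11.82 to 13.11 on KO-labelled and 8.63 to 10.31 on WT-labelled arrays. In whole tissue, more cells of a type and more RNA per cell cannot be told apart.

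Limma fits a linear model to each probe set and draws its variance towards a value estimated from all probe sets. Of the 10 genes, 9 rose and 0 fell on the KO-labelled arrays at an adjusted p under 0.05 in limma. Their median change was 2.58, from 0.57 for Agpat2 to 3.93 for Pck1. In the same fit 5.32% of all probe sets were called higher, 15.6% lower and 20.9% in either direction, and 10.7%, 10.2% and 20.8% of protein-coding genes. The median change of protein-coding genes was -0.18. In all 10 genes the 3 KO-labelled values lay above the 3 WT-labelled values, as they did in 11.1% of all probe sets and 23.3% of protein-coding genes, where 44.9% and 41.0% had them below. The 9 adjusted p values lay between 0.0354 and 0.0451, close to the threshold, where the smallest of all probe sets was 0.0305. Without KO 3, WT 1, WT 2 or WT 3 limma called 0 of the 10 genes and 0 probe sets in all, with 10, 10, 9 and 9 of the genes at an unadjusted p under 0.05. Without KO 1 it called 7 and without KO 2 it called 8. With the groups separate in all 10 genes, leaving out 1 array could not turn the sign of a change.

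**Figure D1:**
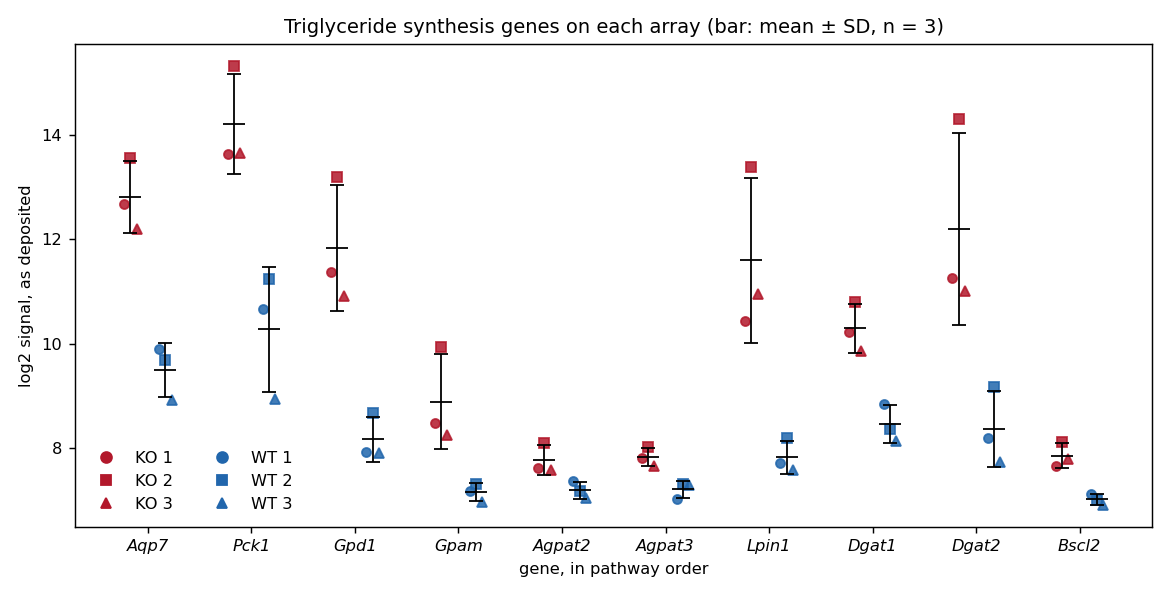
Log2 signal of each of the 10 genes on each array, in pathway order, KO-labelled points left of WT-labelled points, with bars at mean ± SD (n = 3). In every gene the 3 KO-labelled points lie above the 3 WT-labelled points, and the square of KO 2 is the highest of its group.

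The changes fell into 3 ranges. Pck1, Dgat2, Lpin1, Gpd1 and Aqp7 changed by 3.31 to 3.93, which placed each at or above the 99.7th percentile of the changes of all named genes. Dgat1 and Gpam, at 1.84 and 1.74, stood at the 97.9th and 97.6th percentile, and Bscl2, Agpat3 and Agpat2, at 0.84, 0.62 and 0.57, between the 88.0th and the 91.7th. The last 3 had WT-labelled means of 7.01 to 7.21, as did Gpam with 7.15, close to the array medians. No detection calls were available, so whether these genes stood above background on WT-labelled arrays was not tested.

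Glycerol passage across the cell surface was represented by Aqp7, which encodes the aquaglyceroporin of the adipocyte surface. The arrays do not tell entry of glycerol from exit. Its signal was 12.68, 13.55 and 12.19 on the KO-labelled arrays, against 9.89, 9.69 and 8.91 on the WT-labelled arrays. The groups lay apart by 2.30, and KO 2 was the highest of all. The change of 3.31 ± 0.42 (SE), or 9.92-fold, had the smallest unadjusted p of the 10 genes (limma adjusted p = 0.0354). Aqp3, the neighbouring gene on chromosome 4, encodes another channel permeable to glycerol and moved the other way; it is named here after its values were seen. It read 7.07, 6.62 and 7.33 on KO-labelled arrays, against 7.91, 7.67 and 7.76 on WT-labelled arrays. It fell by 0.77 on the log2 scale (limma adjusted p = 0.0465), a call that was lost after each array was centred on its median.

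Glyceroneogenesis was led by Pck1, which encodes the cytosolic phosphoenolpyruvate carboxykinase, the enzyme that commits oxaloacetate to this route. Pck1 had the largest change of the 10 genes, with 13.64, 15.32 and 13.66 on KO-labelled arrays, against 10.67, 11.23 and 8.93 on WT-labelled arrays. The WT-labelled values spread more widely than those of any other member, and WT 3 was the low one. Pck1 rose by 3.93 ± 0.73 (SE), or 15.2-fold (limma adjusted p = 0.0356). Without WT 3 its change was 3.26, or 9.56-fold, and without WT 2 it was 4.41, or 21.2-fold.

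Genes of an earlier and a later step of the route rose as well. Pcx, which encodes the pyruvate carboxylase that makes oxaloacetate, read 9.43, 11.17 and 9.27 on KO-labelled arrays, against 7.20, 7.60 and 7.08 on WT-labelled arrays, a rise of 2.66 ± 0.52 (SE, limma adjusted p = 0.0361). Its fold was 6.33, and 4.16 without KO 2. Gpd1 encodes the cytosolic glycerol 3-phosphate dehydrogenase, which reduces dihydroxyacetone phosphate to the backbone. It read 11.37, 13.20 and 10.92 on KO-labelled arrays, against 7.93, 8.66 and 7.90 on WT-labelled arrays. Again KO 2 was highest, and the groups stayed apart by 2.26. Gpd1 rose by 3.67 ± 0.61 (SE), or 12.7-fold (limma adjusted p = 0.0354), and 7.90-fold without KO 2. Pck2, which encodes the mitochondrial carboxykinase, stood at 0.18 and did not pass (limma adjusted p = 0.333).

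The first acyl chain is added by glycerol 3-phosphate acyltransferases, of which Gpam and Gpat2 encode mitochondrial forms. Gpam read 8.48, 9.93 and 8.25 on KO-labelled arrays, against 7.18, 7.30 and 6.96 on WT-labelled arrays. The 3 WT-labelled values lay within 0.34 of each other, while KO 2 stood well above the other KO-labelled arrays. Gpam rose by 1.74 ± 0.44 (SE), or 3.34-fold (limma adjusted p = 0.0451), with 2.33-fold without KO 2. Without KO 1 its call was lost (adjusted p = 0.051).

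Gpat2, named after its values were seen, fell by 0.58 ± 0.15 (SE) on the log2 scale (limma adjusted p = 0.0444), a call that was lost after each array was centred on its median. The endoplasmic reticulum forms of this step are encoded by Gpat3 and Gpat4, and both rose. Gpat4 rose by 1.41 ± 0.32 (SE) and Gpat3 by 0.44 ± 0.10 (limma adjusted p = 0.0399 and 0.0397). A second probe set of Gpat3 read 6.63, 6.10 and 6.70 on KO-labelled arrays, against 6.65, 6.76 and 6.53 on WT-labelled arrays. The groups overlapped there, so the probe sets of Gpat3 disagree.

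The second chain is added by acylglycerol phosphate acyltransferases. Agpat2, whose loss in humans causes generalised lipodystrophy, was 7.62, 8.09 and 7.57 on KO-labelled arrays, against 7.36, 7.18 and 7.03 on WT-labelled arrays. The groups were separate by 0.21, a narrow gap. Its change of 0.57 ± 0.18 (SE) was the one that did not pass (limma adjusted p = 0.064). Agpat3 was 7.81, 8.01 and 7.66 on KO-labelled arrays, against 7.02, 7.31 and 7.29 on WT-labelled arrays. It rose by 0.62 ± 0.15 (SE, limma adjusted p = 0.0418), but its change turned to -0.32 relative to the housekeeping genes, and its call was lost when any 1 array was left out. Agpat1 stood at 0.23 and did not pass (adjusted p = 0.17).

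Lpin1 encodes lipin 1, the phosphatidate phosphatase that makes diacylglycerol and that also acts in the nucleus as a coactivator of transcription. Its signal was 10.44, 13.39 and 10.95 on KO-labelled arrays, against 7.71, 8.18 and 7.58 on WT-labelled arrays. KO 2 stood almost 3 units above KO 1, whereas the WT-labelled arrays differed by at most 0.60. Lpin1 rose by 3.77 ± 0.76 (SE), or 13.6-fold (limma adjusted p = 0.0365). The fold was 7.32 without KO 2 and 20.4 without KO 1. The other lipin genes did not pass, with changes of -0.11 for Lpin2 and -0.24 for Lpin3 (limma adjusted p = 0.398 and 0.113). Ctdnep1, which encodes a phosphatase that dephosphorylates lipin, rose by 0.85 ± 0.19 (SE, limma adjusted p = 0.0396).

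The last chain is added by 2 unrelated enzymes, encoded by Dgat1 and Dgat2. Dgat1 read 10.23, 10.79 and 9.85 on KO-labelled arrays, against 8.85, 8.36 and 8.14 on WT-labelled arrays. Dgat2 read 11.25, 14.31 and 11.01 on KO-labelled arrays, against 8.19, 9.17 and 7.73 on WT-labelled arrays. Both genes separated the groups, and the 3.30 between KO 2 and KO 3 made Dgat2 the most uneven member among KO-labelled arrays. Dgat1 rose by 1.84 ± 0.30 (SE), or 3.58-fold (limma adjusted p = 0.0354). Dgat2 rose by 3.83 ± 0.93 (SE), or 14.2-fold (limma adjusted p = 0.0425). Without KO 2 Dgat2 was 6.81-fold higher, and without KO 3 it was 21.4-fold higher. Mogat1, which encodes a monoacylglycerol acyltransferase, stood at -0.16 and did not pass (limma adjusted p = 0.331).

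Bscl2 encodes seipin, which is also mutated in a human lipodystrophy. It read 7.65, 8.12 and 7.79 on KO-labelled arrays, against 7.12, 7.01 and 6.91 on WT-labelled arrays. Each group was tight and the groups did not overlap. Bscl2 rose by 0.84 ± 0.16 (SE), or 1.79-fold (limma adjusted p = 0.0357), but its change was -0.10 relative to the housekeeping genes. Fitm2, whose product helps droplets bud from the endoplasmic reticulum, rose by 1.59 ± 0.30 (SE, limma adjusted p = 0.0359).

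Promoters of the genes are shown because the members moved together and their changes differed in size. RefSeq windows of GRCm38.p6, from 250 bases before to 50 bases after a gene's start, were found for 7 of the 10 genes, with 11 windows in all (not for Gpd1, Dgat1 and Dgat2). Shown 5′ to 3′ on the gene's own strand are the 3 genes with a window and a change above 3 and, for contrast, Agpat2, with matches to the searched motifs in capitals. Pck1 lies at chr2:173152823-173153122 (plus strand), Lpin1 at chr12:16610917-16611216 (minus strand), the window shown of Aqp7 at chr4:41047913-41048212 (minus strand) and Agpat2 at chr2:26604368-26604667 (minus strand).
Pck1: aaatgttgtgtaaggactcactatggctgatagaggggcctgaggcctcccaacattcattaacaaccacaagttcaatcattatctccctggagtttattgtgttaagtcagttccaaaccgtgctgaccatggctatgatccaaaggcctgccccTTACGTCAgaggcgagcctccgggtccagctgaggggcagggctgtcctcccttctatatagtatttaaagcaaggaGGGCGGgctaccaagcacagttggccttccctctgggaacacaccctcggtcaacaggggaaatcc
Lpin1: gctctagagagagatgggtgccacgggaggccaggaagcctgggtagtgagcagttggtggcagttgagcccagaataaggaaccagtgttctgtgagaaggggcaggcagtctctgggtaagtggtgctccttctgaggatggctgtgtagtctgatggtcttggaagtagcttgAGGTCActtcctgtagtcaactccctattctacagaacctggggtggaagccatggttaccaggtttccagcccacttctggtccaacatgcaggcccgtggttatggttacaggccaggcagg
Aqp7: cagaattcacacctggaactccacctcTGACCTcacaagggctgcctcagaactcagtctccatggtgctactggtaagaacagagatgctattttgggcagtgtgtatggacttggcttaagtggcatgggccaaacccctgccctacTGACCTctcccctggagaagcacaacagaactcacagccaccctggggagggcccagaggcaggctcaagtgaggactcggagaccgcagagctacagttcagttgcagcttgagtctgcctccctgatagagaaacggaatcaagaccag
Agpat2: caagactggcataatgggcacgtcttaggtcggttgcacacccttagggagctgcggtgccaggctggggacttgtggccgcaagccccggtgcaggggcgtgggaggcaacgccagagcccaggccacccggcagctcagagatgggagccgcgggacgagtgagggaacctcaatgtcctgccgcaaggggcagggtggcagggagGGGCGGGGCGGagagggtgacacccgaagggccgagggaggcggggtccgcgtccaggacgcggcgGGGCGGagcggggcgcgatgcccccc
In Pck1 the capitals mark TTACGTCA, 93 bases before the start, and a GC box. Those letters were searched because they are the known cAMP response element of rodent Pck1, so their presence there was given beforehand and is no result; 0.499% of all 32851 promoter windows hold them. In Lpin1 they mark the nuclear receptor hexamer AGGTCA, 74 bases before the start. In Aqp7 they mark the same hexamer on the other strand, 223 and 101 bases before the start. The hexamer was present in 5 of the 11 windows and in 16.3% of all windows, but the windows of Aqp7 overlap and share the site at 223 bases. Windows of Gpam and Bscl2, which changed by 1.74 and 0.84, held it too. The window of Pck1, which changed by 3.93, did not. Whether the hexamer goes with the size of a change was not tested. In Agpat2 they mark the GC box GGGCGG at 3 places, the first pair overlapping, in a window of 72.0% G and C, against a median of 52.7% over all windows. The GC box was present in 4 of 11 windows and in 35.7% of all windows.

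Both strands were searched by exact letters. The CCAAT box CCAAT was present in 2 of the 11 windows and in 37.4% of all windows. The TATA box TATAAA, the E-box CACGTG, the cAMP response element TGACGTCA, the DR1 element (that hexamer repeated after a spacer of 1 base) and the C/EBP palindrome TTGCGCAA were present in 0 of the 11 windows and in 13.6%, 7.15%, 1.79%, 0.0396% and 0.183% of all windows. A DR1 element holds the single hexamer. A match says that the letters are there, and its absence only that they are not in this window.

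The genes next to the members on the chromosomes were read as well. Of 20 flanking protein-coding genes 15 were measured, and 2, or 13.3%, were called higher and 1 lower, against 10.7% called higher among protein-coding genes. Their median change was 0.05. The genes called higher were Rrp1 beside Agpat3, at 0.61, and Nfx1 on the other side of Aqp7, at 0.68 (limma adjusted p = 0.0386 and 0.0438), both named after their values were seen.

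Beyond the 10 genes, 24 of 27 further genes of the pathway were measured. Of these 6 rose, 3 fell and 15 did not pass, with a median change of 0.205. The 6 that rose were Pcx, Fitm2, Gpat4, Ctdnep1, Acsl5 and Gpat3. Acsl5, which encodes an acyl-CoA synthetase that activates fatty acids, rose by 0.77 ± 0.18 (SE, limma adjusted p = 0.0397). Its other probe set read 6.86, 7.23 and 7.12 on KO-labelled arrays, against 7.09, 6.70 and 6.68 on WT-labelled arrays, with overlap and no call (change 0.25, limma adjusted p = 0.271). With probe sets averaged per gene 4 rose and 3 fell. The 3 that fell, also named after their values were seen, were Aqp3, Gpat2 and Agpat4, at -0.77, -0.58 and -0.55. None of the 3 was called lower after quantile normalization or after centring on the median, which gave 6 higher and 0 lower. Leaving out KO 3, WT 1, WT 2 or WT 3 left 0 calls, leaving out KO 1 left 4 higher and 2 lower, and leaving out KO 2 left 5 higher and 1 lower.

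**Figure D2:**
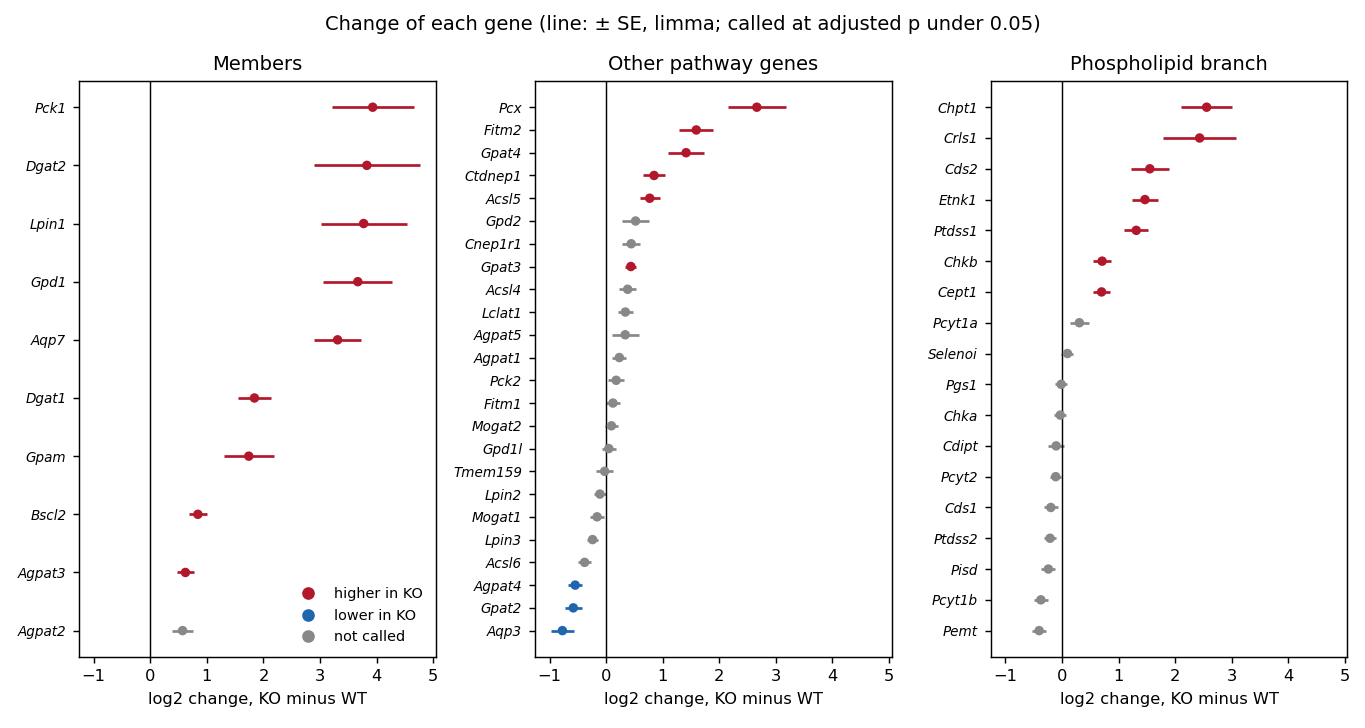
Change in log2 signal, KO-labelled minus WT-labelled, with ± SE, for the 10 members, 24 other pathway genes and 18 genes of the phospholipid branch, coloured by limma's call. Members reach 3.93 and lie to the right of 0, while the other lists centre near 0 with changes from -0.77 to 2.66.

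Phosphatidate and diacylglycerol are also the starting points of membrane phospholipids, and the genes of that branch were compared as well. Of 18 measured genes 7 rose, 0 fell and 11 did not pass, with a median change of 0.04. Chpt1, which encodes the choline phosphotransferase that turns diacylglycerol into phosphatidylcholine, read 10.29, 11.78 and 10.34 on KO-labelled arrays, against 8.10, 8.74 and 7.90 on WT-labelled arrays. It rose by 2.56 ± 0.46 (SE, limma adjusted p = 0.0354). Cds2, which encodes a synthase that draws phosphatidate towards phosphatidylinositol and cardiolipin, rose by 1.55 ± 0.34 (SE, limma adjusted p = 0.0383). The ethanolamine kinase gene Etnk1 rose by 1.47 and the phosphatidylserine synthase gene Ptdss1 by 1.31 (limma adjusted p = 0.0354 for each). Chkb and Cept1 rose by 0.71 and 0.70, and Crls1, the cardiolipin synthase gene named after its value was seen, by 2.43, or 5.40-fold, and 3.36-fold without KO 2. Calls fell to 0 without KO 3, WT 1, WT 2 or WT 3.

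All 3 genes of triglyceride breakdown that were read also rose, of which Pnpla2 and Lipe are on the adipocyte marker list too. Pnpla2, which encodes adipose triglyceride lipase, rose by 3.88 ± 0.89 (SE), the hormone-sensitive lipase gene Lipe by 2.99 ± 0.66 and the monoglyceride lipase gene Mgll by 1.89 ± 0.30 (limma adjusted p = 0.0402, 0.0387 and 0.0354). Pnpla2 read 13.10, 14.97 and 12.92 on KO-labelled arrays, against 10.05, 11.15 and 8.16 on WT-labelled arrays. As in Pck1, KO 2 was the high array and WT 3 the low one. Pnpla2 was 14.7-fold higher, with 8.36-fold without WT 3, 9.34-fold without KO 2 and 23.6-fold without WT 2. Lipe was 7.96-fold higher, with 4.82-fold without KO 2.

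Isozymes of the same step were compared within each array, where a constant added to an array cancels. Dgat2 minus Dgat1 was 1.02, 3.52 and 1.16 on KO-labelled arrays, against -0.66, 0.81 and -0.41 on WT-labelled arrays. The groups did not overlap, and the difference between them was 1.99 ± 0.93 (SE). Lpin1 minus Lpin2 was 3.56, 6.61 and 4.07 on KO-labelled arrays, against 0.79, 1.19 and 0.62 on WT-labelled arrays, a difference of 3.88 ± 0.96 (SE). Gpam minus Gpat3 was 1.17, 2.67 and 0.92 on KO-labelled arrays, against 0.29, 0.44 and 0.12 on WT-labelled arrays, a difference of 1.30 ± 0.55 (SE). Each of these 3 pairs was separate between the groups. Agpat2 minus Agpat3 was -0.19, 0.08 and -0.09 on KO-labelled arrays, against 0.34, -0.13 and -0.26 on WT-labelled arrays, with overlap and a difference of -0.05 ± 0.20 (SE). The exact 2-sided permutation p was 0.1 for the first 3 pairs, the smallest that 3 against 3 arrays allow, and 0.9 for the last, and adjusted over the 4 pairs the exact p values were 0.133 and 0.9. The design therefore cannot pass the threshold for any pair. Without KO 2 the differences were 1.18 for the Dgat pair, 2.95 for the Lpin pair and 0.76 for Gpam and Gpat3.

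**Figure D3:**
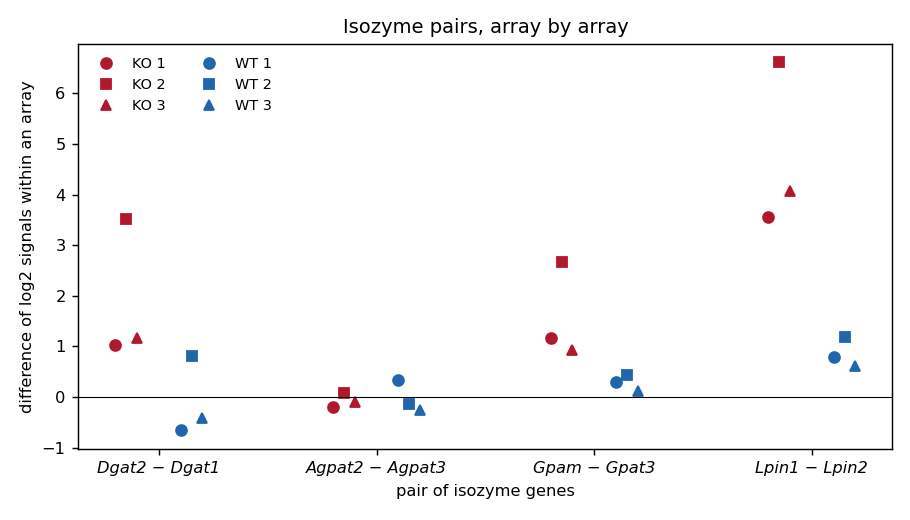
Difference of log2 signals within each array for 4 pairs of isozyme genes, KO-labelled points left of WT-labelled points. In 3 pairs the KO-labelled points lie above the WT-labelled points, and for Agpat2 minus Agpat3 they overlap around 0.

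The members varied together among arrays of one label. KO 2 was the highest KO-labelled array in 10 of 10 genes, by a median of 1.34 above the mean of the other KO-labelled arrays. Over all probe sets KO 2 was the highest of its group in 20.3% and the lowest in 61.6%, but among named genes called higher it was the highest in 92.4%. WT 3 was the lowest WT-labelled array in 9 of 10 genes, and the lowest in 25.6% of all probe sets and in 53.3% of named genes called higher. Adipocyte markers had the same pattern, with list means of 13.11 on KO 2 and 8.63 on WT 3, the extremes of the 6 arrays. The part of this in the members' changes was not tested.

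Markers of other cells moved too. The mean of 12 skeletal muscle markers was 8.73, 10.41 and 6.83 on KO-labelled arrays, against 6.96, 6.95 and 6.96 on WT-labelled arrays, so that KO 1 and KO 2 stood high and KO 3 at the level of WT-labelled arrays. Of these markers 0 of 12 passed limma's test, where 11 of the 12 overlapped between the groups. Atp2a1, the fast muscle calcium pump gene, read 11.20, 13.39 and 7.12 on KO-labelled arrays, against 7.19, 7.08 and 7.36 on WT-labelled arrays. The part of the muscle signal in the members' changes was not tested. KO 1 and KO 2 were also left out, a choice made after seeing the data. KO 3 then read higher than the WT-labelled mean in all 10 genes, which their separation of the groups fixes beforehand. The differences were 3.38 for Pck1, 3.13 for Lpin1, 2.76 for Gpd1, 2.69 for Aqp7 and 2.65 for Dgat2. The median change was then 2.02, and limma called 0 genes of 10, with 8 at an unadjusted p under 0.05 and the lone array assumed to vary like the others.

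Other marker lists differed in direction. Of 9 endothelial markers 9 rose and 0 fell (median change 1.45), with list means of 8.75 to 9.43 on KO-labelled and 7.13 to 7.36 on WT-labelled arrays. Of 8 lymphocyte markers 0 rose and 4 fell (median -0.52), and of 8 epithelial markers 0 rose and 2 fell (median -0.38), but after quantile normalization 1 and 0 of them fell. Of 10 macrophage markers 2 rose and 1 fell, of 8 progenitor and fibroblast markers 1 rose and 0 fell, of 8 smooth muscle markers 2 rose and 0 fell, and of 6 brown fat markers 1 rose and 0 fell. These counts depended on the scaling. Relative to housekeeping genes 0 macrophage markers were called higher and 6 lower, and 1 progenitor marker higher and 6 lower. On that scale 1 smooth muscle marker was higher and 1 lower, 1 brown fat marker higher and 2 lower, and 4 of 9 endothelial markers higher. Of all 65956 probe sets 1088 were called higher there and 57791 lower, with a median change of -1.30, so a call of lower was the rule. Brown fat markers called higher numbered 4 with the replicate block, with a variance trend and with single-symbol probe sets alone, and 3 after centring on the median. Centring gave 4 macrophage and 3 progenitor markers higher and 0 lower. No call was made among 2 erythroid and 3 Schwann cell markers, whose changes lay between -0.51 and 0.14. Relative to housekeeping genes 2 and 3 of them were called lower, as were most probe sets. Of 12 housekeeping genes 5 rose and 0 fell (median 1.11), with list means of 9.04 to 9.67 on KO-labelled and 8.30 to 8.44 on WT-labelled arrays. The part of these shifts in the members' changes was not tested.

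**Figure D4:**
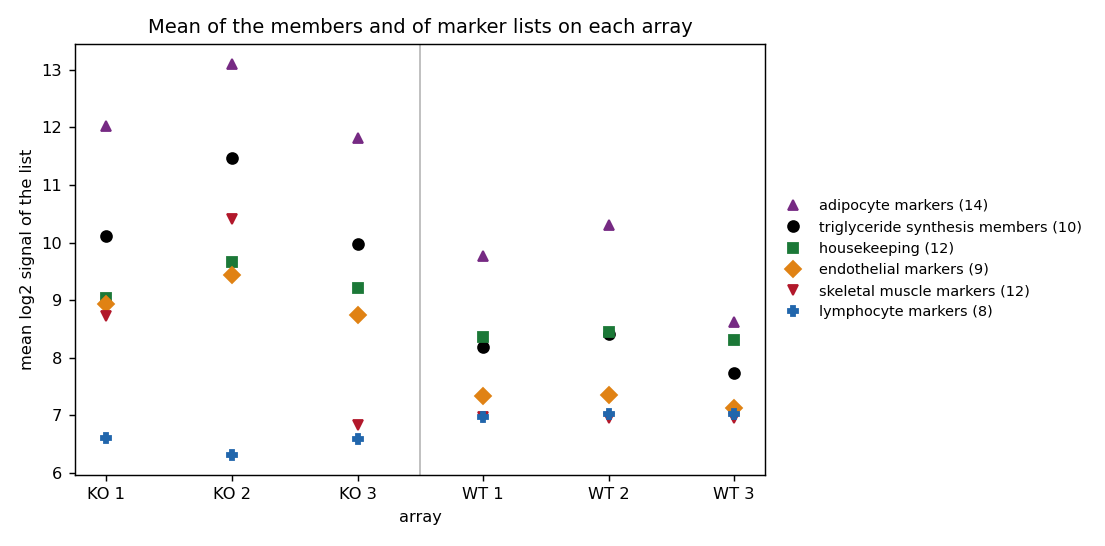
Mean log2 signal of the 10 members and of 5 lists on each array, KO-labelled arrays on the left. Members, adipocyte markers, endothelial markers and housekeeping genes are higher on the 3 KO-labelled arrays, and lymphocyte markers are lower. Skeletal muscle markers are higher on KO 1 and KO 2 but not KO 3.

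The members were also set against the fat cell's own markers and against housekeeping genes within each array. Relative to the mean of 12 housekeeping genes, 7 of the 10 genes kept all KO-labelled values above all WT-labelled values, with a median change of 1.64. Agpat2, Agpat3 and Bscl2 turned to -0.37, -0.32 and -0.10, and in Agpat2 all KO-labelled values lay below all WT-labelled values. Relative to the mean of 14 adipocyte markers the genes split evenly and the median change was -0.17. Pck1, at 1.18, Dgat2, at 1.08, Lpin1, at 1.02, Gpd1, at 0.92, and Aqp7, at 0.56, stayed positive, and 3 of them (Pck1, Dgat2 and Aqp7) did not overlap between the groups. Dgat1, Gpam, Bscl2, Agpat3 and Agpat2 were negative, from -0.91 to -2.18. In 4 of these, all but Dgat1, every KO-labelled value lay below every WT-labelled value. The share of all probe sets that separate the groups was not computed on either scale.

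Pck1 and Agpat2 were the ends of this range. Its signal minus the adipocyte marker mean was 1.62, 2.21 and 1.84 on KO-labelled arrays, against 0.90, 0.92 and 0.30 on WT-labelled arrays. For Agpat2 that difference was -4.40, -5.02 and -4.25 on KO-labelled arrays, against -2.41, -3.13 and -1.60 on WT-labelled arrays. KO-labelled values thus lay above all WT-labelled values in Pck1 and below them in Agpat2. After this scaling limma called 0 members higher and 3 lower, Agpat2, Agpat3 and Bscl2 (adjusted p = 0.00409, 0.00501 and 0.0118). The fit gave each member the same SE of 0.752. Of all 65956 probe sets it called 33 higher and 64053 lower, with a median change of -3.11, so a call of lower was the rule there.

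**Figure D5:**
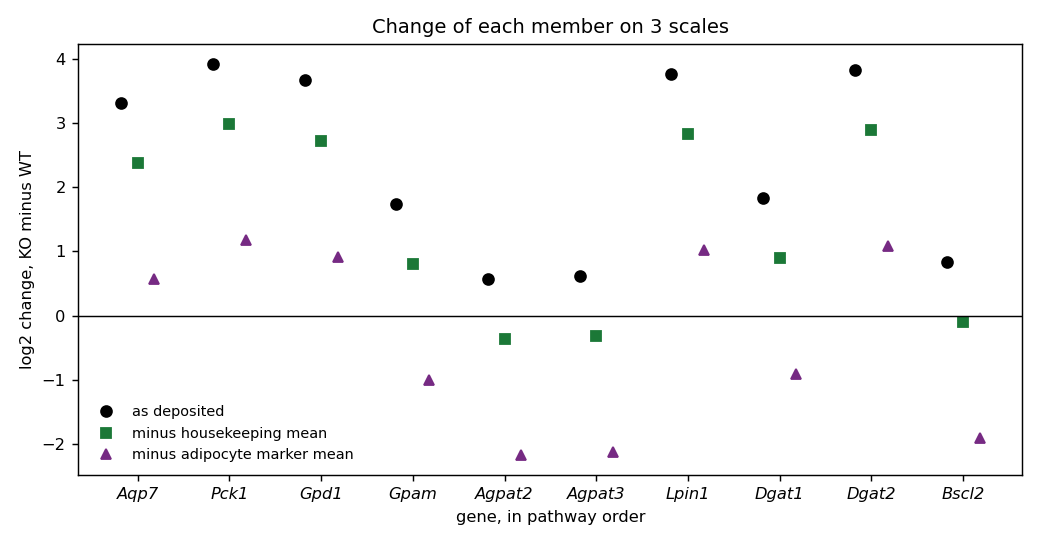
Log2 change (KO-labelled minus WT-labelled) of each member as deposited, after subtracting the mean of 12 housekeeping genes in each array and after subtracting the mean of 14 adipocyte markers. Aqp7, Pck1, Gpd1, Lpin1 and Dgat2 stay above 0 on the 3 scales, while Agpat2, Agpat3 and Bscl2 are above 0 as deposited only.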

How the data were processed

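The authors deposited log2 signals per probe set for 6 arrays, and per the submitters' processing notes used Transcriptome Analysis Console. Their background correction, normalization and genome build are unknown here. Values ran from 2.81 to a ceiling of 19.93, which 0 of the 10 members reached. The number of arrays limits precision. Per the labels, RNA was biotinylated with a GeneChip WT Pico kit.

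Symbols came from GEO's annotation, updated through RefSeq (GRCm38.p6). Of 65956 probe sets 31258 had 1 symbol, 1492 several and 33206 none. Each gene was read from its probe set with the highest mean. KO-labelled and WT-labelled arrays were compared with limma 3.58.1 in R 4.3.3 (lmFit, eBayes without trend, genotype as the only term, Benjamini-Hochberg over all probe sets, threshold 0.05). The procedure was tested on simulated data. Isozyme pairs were compared by exact permutation in scipy 1.17.1. Plots were drawn with matplotlib 3.10.9.

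The members and lists were chosen with earlier results of these data known. Text names all members, the 6 smallest p of each pathway list, isozymes and leading markers. Acsl1, Acsl3 and Gk were not analysed here. Replicate numbers were not used to pair the arrays in the main fit (correlations of same-numbered deviations 0.00153, 0.205 and 0.139). KO 2 and KO 3 correlated best with their own numbers and KO 1 with WT 3 (0.171), so whether the numbers mark pairs was not settled. Alternatives were other normalizations and scalings, filters on dim probe sets, variance settings, the replicate block, probe set choices and leaving out arrays.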

Additional observations from a re-analysis of the deposited data

How the results depend on the processing

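The 10 members kept a positive change under every setting run except the scalings to marker genes. For most of these settings the sign was fixed beforehand. Filters, variance settings, the replicate block and probe set choices left each change as it was. Leaving out or weighting arrays could not turn the sign, because the groups were separate in all 10 genes. Quantile normalization and centring on the median could have turned it. With housekeeping scaling Agpat2, Agpat3 and Bscl2 turned to -0.366, -0.316 and -0.096. The median change of the members was 1.639 there. After adipocyte marker scaling, chosen after seeing the data, that median was -0.172, and Gpam, Agpat2, Agpat3, Dgat1 and Bscl2 stood at -1.007, -2.177, -2.127, -0.907 and -1.907. Limma called 9 members, 9 further pathway genes, 7 phospholipid branch genes and 13791 probe sets. Housekeeping scaling gave 15 further pathway genes (2 higher, 13 lower), 12 branch genes (2 higher, 10 lower) and 58879 probe sets (1088 higher, 57791 lower). Adipocyte marker scaling gave 3 members, 21 further genes and 13 branch genes, all lower, and 64086 probe sets (33 higher, 64053 lower). A linear model with each probe set's own variance alone called 0, 0, 0 and 7, with 10 members at an unadjusted p under 0.05. With 1 KO-labelled array left (without KO 1 and KO 2, also chosen after seeing the data) limma called 0, 0, 0 and 0, with 8, 10, 6 and 19275 at an unadjusted p under 0.05. Probe sets called were 6244 after quantile normalization, 8405 after centring on the median and 22409 with array weights. Of these calls 64.6%, 61.2% and 22.2% were higher, against 25.4% as deposited. With the replicate block limma called 8 members, 3 further pathway genes, 5 branch genes and 11227 probe sets. Not every array correlated best with its own number, since KO 1 correlated best with WT 3, while KO 2 and KO 3 did so with theirs. Agpat2 passed when probe sets with 1 symbol alone were tested (adjusted p = 0.0499), while Gpam and Dgat2 did not pass after quantile normalization (adjusted p = 0.0541 and 0.0539). Leaving out 1 array in turn gave 0 to 8 members, 0 to 6 further genes, 0 to 6 branch genes and 0 to 14166 probe sets, and median changes of 2.178 to 2.839. It moved the difference within Agpat2 and Agpat3 between -0.172 and 0.128, with 0.012 without KO 1 and 0.128 without WT 1. The other isozyme pairs kept their sign under quantile normalization and with probe sets averaged per gene. Without any 1 array they had to, because the groups were separate in each of these pairs. The causes were not tested. Without detection calls, signal over background is unknown and limits the dim genes.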
